A study of Mus musculus with 8 samples.

Results

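The genes described here carry the names of mitochondrial ribosomal proteins. They are the 74 genes whose annotated symbol starts with Mrpl (47 genes) or Mrps (27 genes), out of 12393 genes measured on the array. One of them, Mrps36, is now assigned to another complex, and a few ribosomal proteins with other symbols lie outside the 74. All 74 passed the filter that removed the dimmest 25% of genes, which left 9294 genes tested. RNA came from adipocytes differentiated in culture from stromal-vascular (SV) cells of the inguinal white fat of male C57BL/6J mice, the inguinal pad being a subcutaneous depot. The 4 groups had 2 arrays each and were sh-PRDM16 cells with 1 µM rosiglitazone, sh-PRDM16 cells without it, sh-scr cells with 1 µM rosiglitazone, and sh-scr cells without it. sh-PRDM16 is a short hairpin RNA against PRDM16, a transcriptional co-regulator of brown and beige fat genes, and sh-scr is the control hairpin. Rosiglitazone, of the thiazolidinediones, is an agonist of PPARγ, the receptor that drives fat cell differentiation. The design asks how the response of inguinal adipocytes to this drug depends on PRDM16. The labels call the 2 arrays of a group biological replicates but do not say whether these came from separate animals or cultures, so the tests measure the spread between these samples.

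Mitochondria carry their own ribosome. It translates only the few messages encoded by mitochondrial DNA, which specify core subunits of the respiratory chain and of ATP synthase. Its RNAs come from mitochondrial DNA, while all its proteins are encoded in the nucleus, made in the cytosol and imported. The small subunit reads the message and the large subunit forms the peptide bond. Many of the proteins descend from bacterial ribosomal proteins and the others are specific to mitochondria. Brown and beige adipocytes are rich in mitochondria, and their heat production depends on a respiratory chain that in part needs this ribosome.

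The promoters of 5 members are shown because they cover the patterns described further on. Mrpl47, Mrps22 and Mrpl12 were among the members most raised by rosiglitazone, and Mrps14 had the largest deficit in treated sh-PRDM16 cells. On its brightest probe set Mrpl52 passed in none of the 4 comparisons with the arrays scaled to a common median. Each line gives the 250 bases before the start listed by RefSeq (GRCm38.p6), 5′ to 3′ on the gene's strand, with matches to the motifs named after them in capitals. The stretches are chr3:32736756-32737005 (minus strand) for Mrpl47, chr9:98601680-98601929 (minus strand) for Mrps22, chr11:120484387-120484636 (plus strand) for Mrpl12, chr1:160194965-160195214 (plus strand) for Mrps14 and chr14:54426659-54426908 (plus strand) for Mrpl52.
Mrpl47: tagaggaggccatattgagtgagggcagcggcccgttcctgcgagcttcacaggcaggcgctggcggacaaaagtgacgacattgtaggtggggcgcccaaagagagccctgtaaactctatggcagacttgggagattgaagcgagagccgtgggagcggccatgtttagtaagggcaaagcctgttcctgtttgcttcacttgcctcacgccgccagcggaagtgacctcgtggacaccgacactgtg
Mrps22: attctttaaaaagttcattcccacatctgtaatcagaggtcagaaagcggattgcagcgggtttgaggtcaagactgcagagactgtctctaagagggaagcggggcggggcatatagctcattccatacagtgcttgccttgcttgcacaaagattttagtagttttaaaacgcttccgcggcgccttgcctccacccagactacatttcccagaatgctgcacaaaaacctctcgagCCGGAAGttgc
Mrpl12: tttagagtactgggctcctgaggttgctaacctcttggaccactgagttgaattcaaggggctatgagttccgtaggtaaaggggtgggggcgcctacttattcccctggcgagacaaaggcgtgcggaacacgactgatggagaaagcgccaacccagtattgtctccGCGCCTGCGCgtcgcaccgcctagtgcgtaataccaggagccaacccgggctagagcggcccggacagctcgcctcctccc
Mrps14: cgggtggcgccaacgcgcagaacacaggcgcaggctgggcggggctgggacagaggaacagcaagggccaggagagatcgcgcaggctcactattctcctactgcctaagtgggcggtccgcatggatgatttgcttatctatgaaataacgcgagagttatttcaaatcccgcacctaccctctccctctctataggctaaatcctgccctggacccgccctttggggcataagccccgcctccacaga
Mrpl52: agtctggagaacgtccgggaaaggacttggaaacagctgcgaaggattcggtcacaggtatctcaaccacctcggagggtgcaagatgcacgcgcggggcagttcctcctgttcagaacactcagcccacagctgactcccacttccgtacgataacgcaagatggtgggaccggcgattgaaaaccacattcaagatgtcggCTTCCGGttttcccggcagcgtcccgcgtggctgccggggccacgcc

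A total of 4 motifs of factors linked to mitochondrial genes or to PPARγ were searched on both strands of these 250 bases, and overlapping motifs were each counted. A promoter was listed for 65 of the 74 members and for 7512 of the genes tested. CCGGAAG, an ETS motif bound by GABPA among others, stood in 16 members' promoters (24.6%), against 15.6% of the genes tested and 7.83% of all 27025 genes with a listed promoter. In Mrps22 it began 11 bases before the start, and in Mrpl52 its reverse complement began 47 bases before the start. The NRF1 motif, GCGCA, any base and then GCGC, stood in 9 members (13.8%), against 9.52% and 4.23%, and in Mrpl12 a match on the other strand began 81 bases before the start. AAGATGGC, a YY1 motif, stood in 4 members (6.15%), against 2.44% and 1.83%. The direct repeat bound by PPAR with RXR, AGGTCA, any base and AGGTCA again, stood in no member, against 0.0266% and 0.0407%. The Mrpl47 and Mrps14 stretches held none of the 4 motifs. These shares describe the letters of the promoters, and no binding was measured.

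Intensities are given after each array had been scaled to the same median. The scaling factors lay between 0.856 and 1.157, since the deposited array medians ran from 100.1 to 135.4. Replicate arrays correlated at r = 0.990 to 0.992 on the log2 scale, and no array correlated above 0.985 with an array of another group. The cells carried the defining transcripts of adipocytes at high levels: Adipoq, which encodes adiponectin, ran from 10453 to 16805 over the 8 arrays. No probe set used here is annotated to Prdm16, so the knockdown itself was not checked. The mean intensity of the members lay between 334 for Mrpl37 and 3847 for Mrpl51, with a median of 1191. Mrpl51, Mrpl39 and Mrpl42 were the brightest, and Mrpl37, Mrpl38 and Mrps11 the dimmest. These are probe set intensities, so they rank signals and not amounts of RNA between genes.

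Rosiglitazone raised most of the mitochondrial ribosomal protein genes in both lines, although with no scaling of the arrays only 12 of 74 rose in sh-scr cells and 3 fell. In sh-PRDM16 cells 57 of 74 members rose and none fell, while 14.4% of all genes tested rose and 9.80% fell. In sh-scr cells 55 rose and none fell, against 14.9% and 9.89% of all genes. The median log2 change of the members was 0.42 in sh-PRDM16 cells, against -0.02 for all genes, and 0.44 in sh-scr cells, against 0.00 for all genes. Both treated arrays lay above both untreated arrays for 69 members in sh-PRDM16 cells (31.1% of all genes) and for 69 in sh-scr cells (32.5%). They lay below for 1 (33.1%) and 2 (32%). A gene passed at an adjusted p under 0.05 in limma's moderated test with Benjamini-Hochberg adjustment over all 9294 genes. With no scaling of the arrays, 35 members rose in sh-PRDM16 cells and none fell, against 10.2% and 3.35% of all genes. In sh-scr cells the 3 that fell without scaling were Mrpl24, Mrpl52 and Mrps15, and of all genes 5.24% rose and 32.3% fell there. The change of the median gene in that line was then -0.31. Leaving out 1 array left fewer rises in either line. The members' median minus that of all genes then lay between 0.44 and 0.47 in sh-PRDM16 cells. In sh-scr cells it lay between 0.38 and 0.48.

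Mrpl1, a protein of the stalk from which spent transfer RNA leaves, had the largest change in both lines on its brightest probe set. It had 1026 and 1058 in treated sh-PRDM16 cells, against 360.1 and 347.6 in untreated ones, a 2.86-fold difference (log2 change 1.52, SE 0.08, limma adjusted p = 0.000131). In sh-scr cells it had 1226 and 1370.0 with the drug, against 480.6 and 505.8 without it, a 2.58-fold difference (log2 change 1.37, SE 0.08, limma adjusted p = 0.000221). The treated arrays stood far above the untreated ones in both lines, with no overlap. With the mean of all its probe sets, of which the other 2 are dim, the changes were 0.65 (limma adjusted p = 0.0207) in sh-PRDM16 cells and 0.47 (limma adjusted p = 0.0605) in sh-scr cells.

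Mrpl47, homologous to the bacterial L29 protein at the exit of the peptide tunnel, came next. It had 1704 and 1670 in treated sh-PRDM16 cells and 655.0 and 725.6 in untreated ones (2.41-fold, log2 change 1.27, SE 0.08, limma adjusted p = 0.00019). The sh-scr arrays gave 1945 and 1873 with the drug and 743.3 and 732.4 without it (2.55-fold, log2 change 1.35, SE 0.08, limma adjusted p = 0.000208). Untreated Mrpl47 was nearly the same in both lines, unlike untreated Mrpl1.

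Mrps22, a mitochondria-specific protein of the small subunit, rose 2.13-fold in sh-PRDM16 cells and 2.03-fold in sh-scr cells. Its values were 2567 and 2510.1 in treated sh-PRDM16 cells, against 1151 and 1222 in untreated ones (log2 change 1.09, SE 0.08, limma adjusted p = 0.000332). In sh-scr cells they were 3025 and 3309 with the drug, against 1539 and 1559.9 without it (log2 change 1.02, SE 0.08, limma adjusted p = 0.000437). Both treated groups were clear of both untreated groups.

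Mrpl12, the counterpart of bacterial L7/L12 in the stalk that receives translation factors, also binds the mitochondrial RNA polymerase in human cells. It had 3316 and 3238 in treated sh-PRDM16 cells, against 1668 and 1728 in untreated ones (1.92-fold, log2 change 0.94, SE 0.07, limma adjusted p = 0.000391). In sh-scr cells it had 3749 and 3994 with the drug, against 2222 and 2208 without it (1.74-fold, log2 change 0.80, SE 0.07, limma adjusted p = 0.000767). Among the other proteins of this stalk, Mrpl10 and Mrpl11 were tested. They rose by log2 0.55 and 0.46 in sh-PRDM16 cells and by 0.41 and 0.50 in sh-scr cells (SE 0.08 and 0.09, largest limma adjusted p = 0.0134). All 3 tested genes of this stalk thus rose in both lines on their brightest probe sets. Mrpl53, also listed for it, was not tested. With no scaling the sh-scr changes of Mrpl10 and Mrpl11 were 0.08 and 0.16 and did not pass (limma adjusted p = 0.695 and 0.371). Mrpl11 then also missed the threshold in sh-PRDM16 cells, with a change of 0.48 (limma adjusted p = 0.0564).

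**Figure D1:**
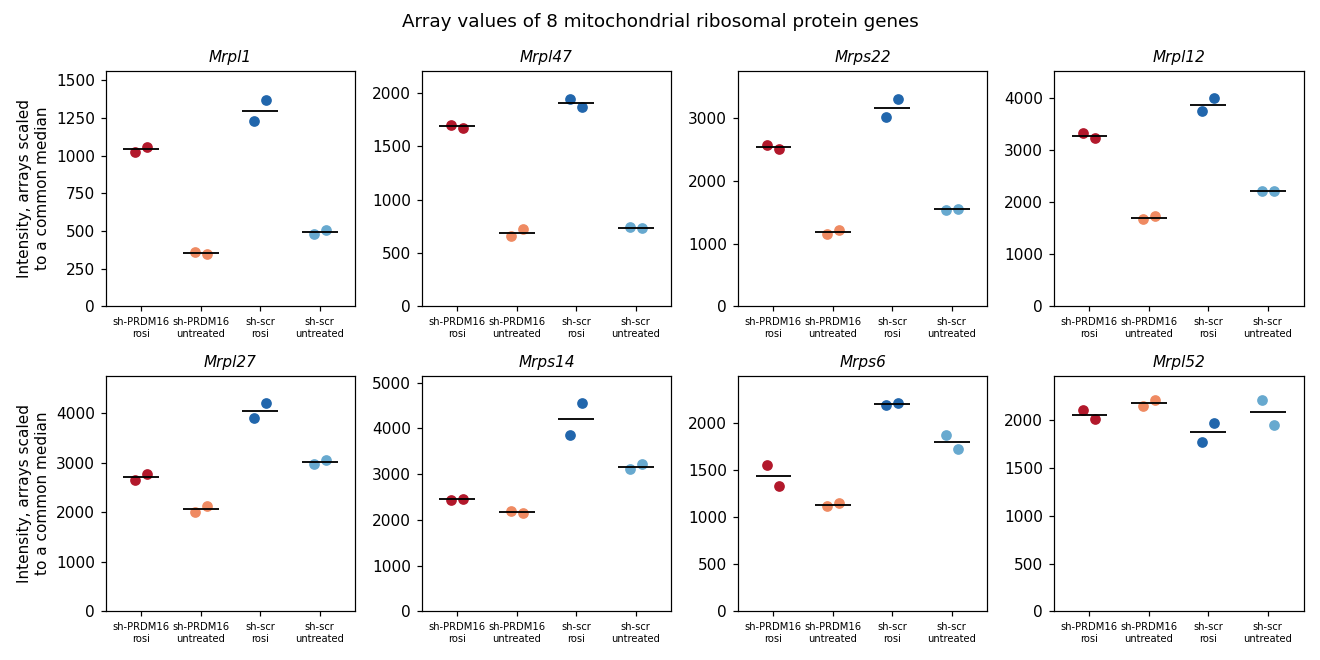
Scaled intensity (linear axis from 0) of 8 members on each of the 8 arrays. Points are arrays, lines are group means of 2 arrays, and rosi stands for 1 µM rosiglitazone. Mrpl1 ran from 1026 to 1058 in treated sh-PRDM16 cells, against 347.6 to 360.1 in untreated ones, while the groups of Mrpl52 differed little.

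Of the remaining genes with the largest rises, Mrpl55 (the bL31 homologue of the large subunit) changed by log2 1.00 in sh-PRDM16 and 1.03 in sh-scr cells, and Mrps5 (small subunit, near the message entry) by 0.85 and 1.02. Mrps35, a mitochondria-specific small-subunit protein, changed by 0.87 and 0.82, and Mrpl35, a bL35 homologue, by 0.76 and 0.81. Mrps36 changed by 0.80 and 1.08. This gene carries a ribosomal name, but its product is now known as a component of the 2-oxoglutarate dehydrogenase complex. All of these passed in both lines, with a largest limma adjusted p of 0.00221.

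Among the members with particular roles, Mrpl45, which tethers the large subunit to the inner membrane in mammals, rose by log2 0.48 in sh-PRDM16 and 0.70 in sh-scr cells. Mrpl44, which has a ribonuclease III fold and lies near the tunnel exit, rose by 0.55 and 0.51. Mrps12, the decoding-centre protein, rose by 0.42 and 0.30, although with no scaling of the arrays its sh-scr change was -0.03 (limma adjusted p = 0.855). Mrpl41 rose by 0.49 in each line, and Mrpl37 by 0.42 and 0.49. Mrps30, which despite its name sits beside Mrpl37 in the large subunit, rose by 0.48 and 0.44. The bacterial S18 protein has 3 counterparts in mitochondria: Mrps18a, of the large subunit, rose by 0.56 and 0.48, and Mrps18b, of the small subunit, by 0.77 and 0.69. The change of the remaining one, Mrps18c, was 0.26 and 0.21 with SE 0.10 and did not pass (limma adjusted p = 0.11 and 0.186). Of the genes just named, Mrps18b alone still rose in sh-scr cells with no scaling of the arrays. Mrpl12, described above, also rose there (0.47, limma adjusted p = 0.0217).

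Both subunits, and both bacterial homologues and mitochondria-specific proteins, held members that rose; without scaling, the Mrpl24, Mrpl52 and Mrps15 changes in sh-scr cells passed as falls. Of the 47 Mrpl genes 35 rose in sh-PRDM16 and 36 in sh-scr cells, with median log2 changes of 0.42 and 0.44, and of the 27 Mrps genes 22 and 19 rose, with medians of 0.43 and 0.44. Bacterial homologues of the large subunit rose in 22 and 21 of 29 cases, and its mitochondria-specific proteins in 15 and 17 of 20. In the small subunit 11 and 10 of 16 bacterial homologues and 8 and 6 of 8 mitochondria-specific proteins rose. Of the 8 proteins around the exit of the peptide tunnel (Mrpl17, Mrpl22, Mrpl23, Mrpl24, Mrpl39, Mrpl44, Mrpl45 and Mrpl47), 4 rose in sh-PRDM16 and 5 in sh-scr cells. No difference between these classes was tested.

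A total of 49 members rose in both lines, against 10.5% of all genes, and 11 rose in neither. Those 11 were Mrpl17, Mrpl23, Mrpl24, Mrpl33, Mrpl36, Mrpl52, Mrpl54, Mrps15, Mrps18c, Mrps24 and Mrps28. Mrpl52, a mitochondria-specific large-subunit protein, had 2099 and 2004 in treated sh-PRDM16 cells and 2141 and 2205 in untreated ones, and 1767 and 1971 in treated sh-scr cells against 2211 and 1949 in untreated ones. Its treated sh-PRDM16 arrays lay just below the untreated ones and its sh-scr groups overlapped (log2 changes -0.08 and -0.15, SE 0.09, limma adjusted p = 0.572 and 0.286). Mrpl33, a small bL33 homologue, had 1914 on one untreated sh-PRDM16 array and 761.2 on its replicate, and its changes had an SE of 0.40, against a median SE of 0.08 over the members. Of the others, 6 passed in sh-scr cells alone (Mrpl16, Mrpl28, Mrpl39, Mrpl48, Mrpl49 and Mrps14) and 8 in sh-PRDM16 cells alone (Mrpl2, Mrpl14, Mrpl32, Mrpl38, Mrps6, Mrps7, Mrps26 and Mrps34), which does not show that their responses differ between lines.

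**Figure D2:**
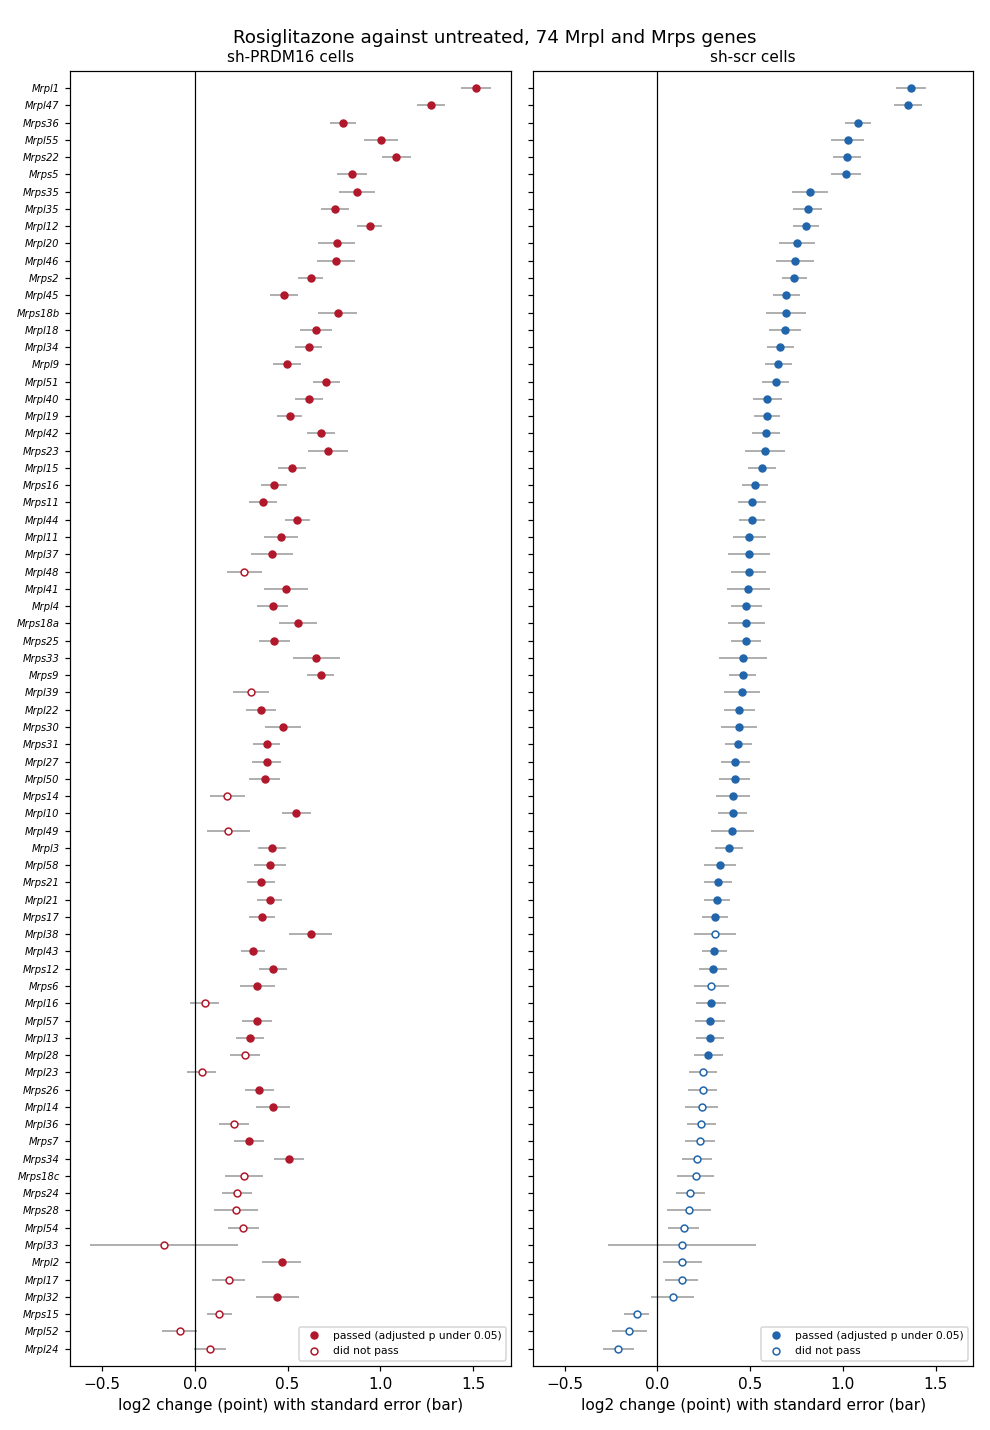
Log2 change with rosiglitazone (x axis) of the 74 members (rows, ordered by the sh-scr change) in sh-PRDM16 cells (left) and sh-scr cells (right). Bars are standard errors of the fit on 8 arrays and filled points passed at an adjusted p under 0.05: 57 points are filled at left and 55 at right, all above 0. With no scaling of the arrays 35 and 12 rose, and Mrpl24, Mrpl52 and Mrps15 fell in sh-scr cells.

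The size of the response went with that in the other line. Over the 74 members the changes in sh-PRDM16 and sh-scr cells correlated at r = 0.88 (rank correlation 0.82), and over all 9294 genes at r = 0.74. The 2 responses share no array, but the points are genes measured on the same arrays and are no independent replicates.

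Whether the drug response of these genes depended on PRDM16 was tested as the difference between the 2 responses. No member passed, and 5 of all 9294 genes did (0.0538%): Ucp1, Cidea, Dgat2, Arhgap20 and Lama5, named after their values were seen. At an unadjusted p under 0.05 there were 4 members (Mrpl24, Mrps15, Mrps34 and Mrps36) and 1205 genes in all. The response in sh-PRDM16 cells minus that in sh-scr cells lay between log2 -0.30 (Mrpl33) and 0.36 (Mrpl32), with a median of 0.03, and it was above 0 for 43 members and below 0 for 31. With no scaling it was above 0 for all 74, with a median of 0.38 against 0.33 for all genes, and no member passed. Mrps36 had the smallest limma adjusted p, 0.315, with a difference of -0.28 and a 95% interval from -0.53 to -0.04 before adjustment. For Mrpl1 the interval ran from -0.13 to 0.43 and for Mrpl12 from -0.09 to 0.38. The bound farther from 0 was 0.37 for the median member and at most 1.66 (Mrpl33).

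Cells with sh-PRDM16 carried less of many of these transcripts than sh-scr cells, both with and without the drug. With rosiglitazone 24 of 74 members were lower in sh-PRDM16 cells and none was higher, while 12.6% of all genes were lower and 11.4% higher. Without rosiglitazone 25 members were lower and none higher, against 12% and 9.76% of all genes. The median log2 difference of the members was -0.20 with the drug (0.02 for all genes) and -0.22 without it (0.03 for all genes). The sh-PRDM16 arrays lay below the sh-scr arrays for 58 members with the drug (31.3% of all genes) and for 56 without it (29.7%). They lay above for 6 with the drug (34.3%) and for none without it (35.1%). With no scaling of the arrays, 2 members were lower with the drug (Mrps14 and Mrps6) and 31 without it, and none was higher in either comparison. Of all genes 4.77% were then lower and 10.6% higher with the drug, and 15.7% and 1.98% without it. Leaving out 1 array of a compared group cut these counts, in some settings to a share no larger than that of all genes. The members' median minus that of all genes then lay between -0.24 and -0.19 with the drug. Without the drug it lay between -0.26 and -0.24. Without untreated sh-PRDM16 replicate 2, Mrpl33 passed as higher.

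Mrps14, a small-subunit protein homologous to bacterial S14, had 2436 and 2464 in treated sh-PRDM16 cells, against 3859 and 4558 in treated sh-scr cells (log2 difference -0.77, SE 0.09, limma adjusted p = 0.0034). Without the drug it had 2186 and 2149.7 in sh-PRDM16 cells, against 3107 and 3213 in sh-scr cells (-0.54, SE 0.09, limma adjusted p = 0.0112). Even the treated sh-PRDM16 arrays stayed below the untreated sh-scr ones. The dimmer second probe set of Mrps14 differed by -0.66 with and -0.15 without the drug (limma adjusted p over all probe sets = 0.00826 and 0.324). With rosiglitazone in sh-PRDM16 cells that probe set changed by -0.30 and the brightest by 0.18, and neither change passed (limma adjusted p = 0.0732 and 0.262).

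Mrps6, which lies on the small-subunit platform in bacteria, had 1548 and 1330.0 in treated sh-PRDM16 cells and 2185 and 2212 in treated sh-scr cells (log2 difference -0.61, SE 0.09, limma adjusted p = 0.00765). The untreated values were 1118 and 1147 in sh-PRDM16 and 1873 and 1719 in sh-scr cells (-0.66, SE 0.09, limma adjusted p = 0.00615). Mrps14 and Mrps6 were lower in both comparisons under all 4 scalings of the arrays tried.

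Mrpl27, a large-subunit protein near the peptidyl transferase centre, had 2652 and 2777 in treated sh-PRDM16 cells, against 3897 and 4210.3 in treated sh-scr cells (log2 difference -0.58, SE 0.08, limma adjusted p = 0.00471). Untreated sh-PRDM16 cells had 2012 and 2135, against 2978 and 3065 in untreated sh-scr cells (-0.54, SE 0.08, limma adjusted p = 0.00596). Neither comparison overlapped, and with no scaling the treated difference was -0.43 and did not pass (limma adjusted p = 0.0607).

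Others with large deficits were Mrpl14, homologous to bacterial L14 at the subunit interface (-0.46 with and -0.64 without the drug), Mrps23 (-0.37 and -0.51), Mrps35 (-0.39 and -0.44), Mrpl11 of the stalk (-0.46 and -0.42), Mrpl39 (-0.56 and -0.41), Mrpl45 (-0.57 and -0.36) and Mrps36 (-0.57 and -0.29). Mrpl1 differed by -0.31 and -0.46. All of these passed in both comparisons on their brightest probe sets, with a largest limma adjusted p of 0.0483. With the mean of all its probe sets the untreated difference of Mrpl1 was -0.26 and did not pass (limma adjusted p = 0.245). Mrpl2, a core protein of the peptidyl transferase region, passed without the drug (-0.59, SE 0.10, limma adjusted p = 0.0123) but not with it (-0.26, SE 0.10, limma adjusted p = 0.124). The same held for Mrpl12 (-0.38, limma adjusted p = 0.0135, without the drug and -0.24, limma adjusted p = 0.0515, with it). Mrpl47, which rose with the drug in both lines, showed no passing difference between the lines (-0.18 and -0.10, SE 0.08, limma adjusted p = 0.143 and 0.41).

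**Figure D3:**
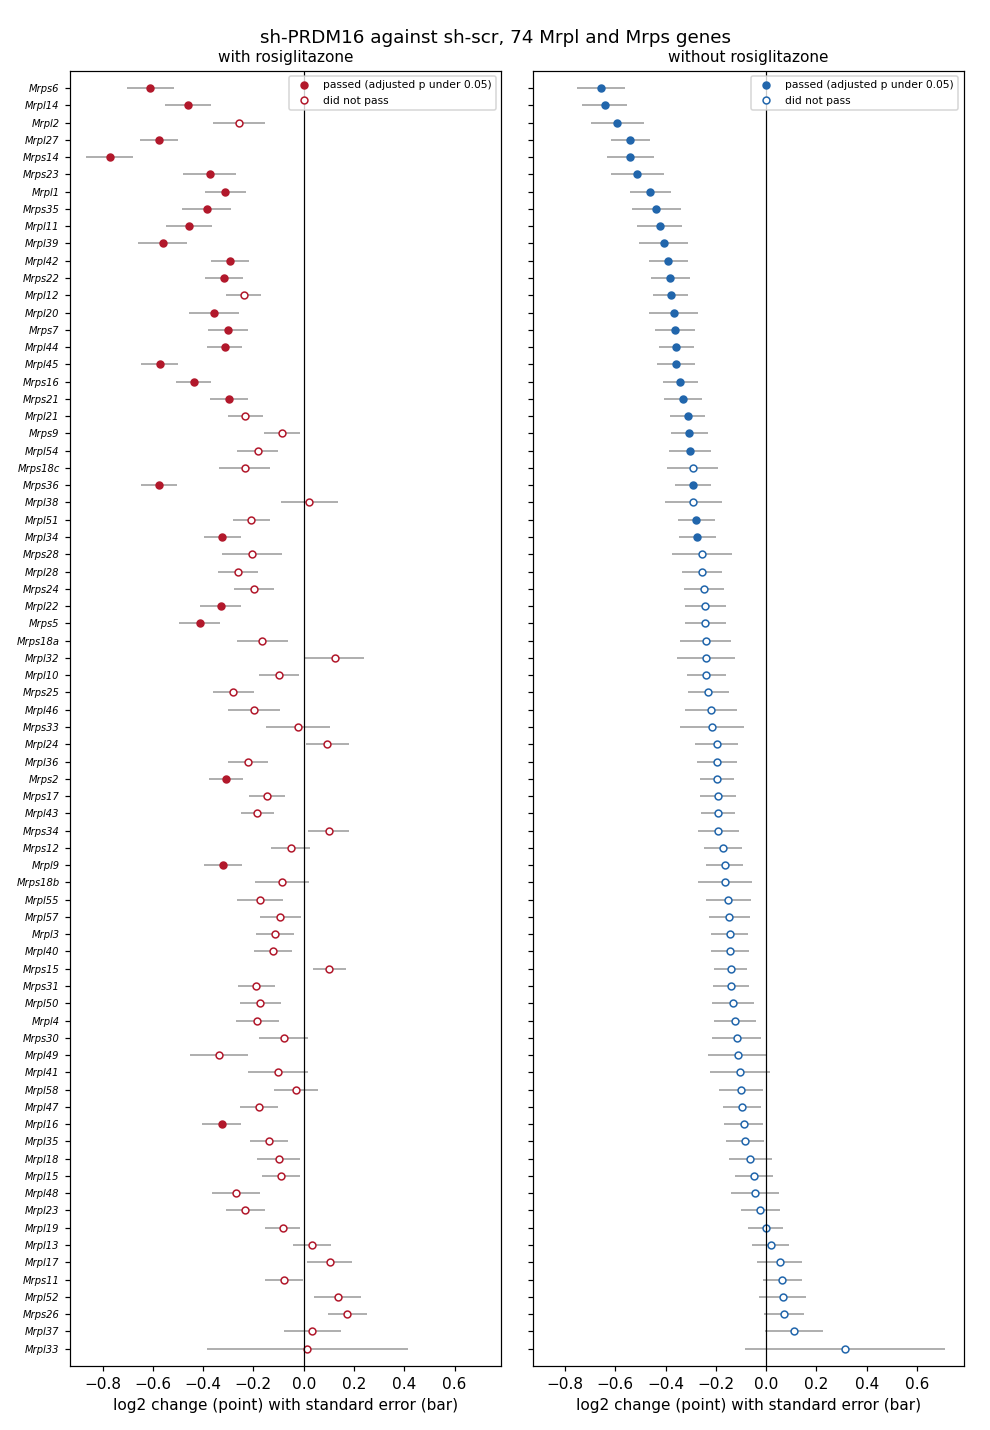
Log2 difference of sh-PRDM16 minus sh-scr cells (x axis) of the 74 members (rows, ordered by the untreated difference) with rosiglitazone (left) and without it (right). Bars are standard errors and filled points passed at an adjusted p under 0.05: 24 are filled at left and 25 at right, all below 0. With no scaling of the arrays 2 and 31 passed, also all below 0.

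A total of 19 members were lower in sh-PRDM16 cells in both comparisons, against 8.07% of all genes. Of these 74 genes, 15 Mrpl and 10 Mrps genes were lower without the drug, and 13 Mrpl and 11 Mrps genes with it. Of the 3 tested genes of the stalk that receives translation factors, 1 was lower with the drug (Mrpl11) and 2 without it (Mrpl11 and Mrpl12). Each was so on its brightest probe set.

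The array values of treated sh-PRDM16 cells were also set against those of untreated sh-scr cells. Both treated sh-PRDM16 arrays lay above both untreated sh-scr arrays for 52 members (38.4% of all genes). They lay below for 6 (28.7% of all genes), namely Mrpl2, Mrpl14, Mrpl27, Mrpl39, Mrps6 and Mrps14, and the groups overlapped for 16. Under the other scalings the count above was 30 with no scaling, 49 with quantile normalization and 48 with trimmed-mean scaling, and the count below was 22, 13 and 15. The shares of all genes under these scalings were not counted, so these counts cannot be read as particular to the members. The order of the arrays is a description of their values and was not given a test. Mrpl39, among the brightest members, had 3467 and 3008 in treated sh-PRDM16 cells and 3480.1 and 3469 in untreated sh-scr cells, while Mrpl51, the brightest, had 4568 and 4209.8 in treated sh-PRDM16 cells and 3253 and 3249 in untreated sh-scr cells.

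Most members with several probe sets changed in 1 direction in the probe sets that could be tested, though not always by a like amount. Of 127 probe sets annotated to 1 member alone, 117 passed the dim filter; 74 were higher with rosiglitazone in sh-PRDM16 cells and 68 in sh-scr cells, and none was lower. Of all 15285 single-gene probe sets tested in the same fit, 11.8% were higher and 7.54% lower in sh-PRDM16 cells, and 12.6% and 7.56% in sh-scr cells. In sh-PRDM16 against sh-scr cells, 25 were lower with the drug (10.1% of all probe sets) and 26 without it (8.84%). None was higher without the drug (6.88%) and 1 was higher with it (8.54%), a dim probe set of Mrpl52 (24.8 and 35.7 in sh-PRDM16, against 6.89 and 12.8 in sh-scr cells; log2 difference 0.84, SE 0.18, limma adjusted p = 0.0285 over all probe sets). Of 30 genes with several tested probe sets, the changes had 1 direction for 21 in the sh-PRDM16 drug response and 27 in the sh-scr one, and no gene had calls in opposite directions. Mrpl1 shows the limit of this: its second tested probe set, with 130.9 and 150.6 in treated against 101.6 and 91.6 in untreated sh-PRDM16 cells, changed by 0.48 (SE 0.14, limma adjusted p = 0.0679) and in sh-scr cells by 0.20 (SE 0.14, limma adjusted p = 0.37). A further 3 probe sets match a member and another gene. Those shared by Mrpl30 with Gm6238 and by Mrpl53 with Ccdc142 changed with the drug by log2 0.48 and 0.44 in sh-PRDM16 and 0.51 and 0.47 in sh-scr cells, and that shared by Mrps34 with Nme3 by -0.11 and 0.07. They were not tested, and their signal cannot be assigned to 1 gene.

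Lists of other genes of mitochondrial translation were described in the same way. Of all genes 14.4% rose with the drug in sh-PRDM16 cells and 14.9% in sh-scr cells. Between the lines 12.6% were lower in sh-PRDM16 cells with the drug and 12% without it. Of 8 translation factors and related genes tested (the latter Lrpprc, Slirp and Mtfmt), 6 rose with the drug in sh-PRDM16 and 5 in sh-scr cells. The elongation factors Gfm1 and Gfm2 rose by log2 0.74 and 0.71 in sh-PRDM16 and by 0.68 and 0.69 in sh-scr cells, and Lrpprc, which stabilises mitochondrial messages, by 0.77 and 0.71. The initiation factor Mtif2 rose by 0.48 and 0.74, and it was lower in sh-PRDM16 than in sh-scr cells by log2 -0.65 with and -0.39 without the drug. It was the only gene of the 8 that passed between the lines. Of 11 genes that charge mitochondrial transfer RNAs, 3 rose in sh-PRDM16 cells (Qrsl1, Gatc and Rars2) and 4 in sh-scr cells (Fars2, Rars2, Iars2 and Qrsl1), with none passing between the lines.

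Of 17 genes of mitochondrial ribosome assembly and ribosomal RNA modification, 8 rose in sh-PRDM16 (47.1%) and 7 in sh-scr cells (41.2%). Mterf4, which guides an RNA methyltransferase to the large subunit, rose by log2 0.76 and 0.78, and the ribosomal RNA methyltransferase Mrm3 by 0.73 and 0.68. Eral1, which chaperones the small subunit's RNA, rose by 0.47 and 0.63. In sh-PRDM16 against sh-scr cells Mterf4 was lower by -0.47 with and -0.45 without the drug, Eral1 by -0.45 and -0.29, and Nsun4, the partner of Mterf4, by -0.37 with the drug. Of 4 ribosomal proteins that carry other symbols 1 rose in each line (25%): Ptcd3, by 0.72 and 0.71. Dap3, a GTP-binding protein of the small subunit, changed by 0.10 and 0.05 (SE 0.08, limma adjusted p = 0.392 and 0.703). Of 9 genes of mitochondrial DNA maintenance and transcription, 1 rose in sh-PRDM16 (the RNA polymerase Polrmt, 0.58) and 3 in sh-scr cells (Polrmt 0.61, Tefm 0.56 and Lonp1 0.44). These are 11.1% and 33.3% of the list, against 14.4% and 14.9% of all genes. Tfam, which packages mitochondrial DNA, had changes of 0.11 and 0.08 (SE 0.09, limma adjusted p = 0.4 and 0.535).

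Transcriptional regulators of mitochondrial genes differed among themselves. Ppargc1b, a co-activator, had 658.5 and 634.2 in treated against 146.4 and 138.6 in untreated sh-PRDM16 cells, and 631.8 and 634.4 against 117.5 and 143.7 in sh-scr cells (log2 changes 2.06 and 2.15, SE 0.10, limma adjusted p = 0.000105 and 0.00012). The lines did not pass as different for it with or without the drug. Its relative Ppargc1a, the inducible co-activator of thermogenesis, had 134.0 and 123.4 in treated against 40.4 and 50.5 in untreated sh-PRDM16 cells, and 392.5 and 461.0 against 112.5 and 115.5 in sh-scr cells (log2 changes 1.24 and 1.76, SE 0.11, limma adjusted p = 0.000875 and 0.000296). It was lower in sh-PRDM16 cells by log2 -1.61 with and -1.09 without the drug (limma adjusted p = 0.000742 and 0.00223). The nuclear receptor Esrra rose by 0.88 and 0.92 and did not pass between the lines. Pprc1, the third of the co-activator family, was higher in sh-PRDM16 cells by 0.36 with and 0.52 without the drug. Gabpa, an ETS factor, rose in sh-scr cells by 0.32 (SE 0.09, limma adjusted p = 0.0454), but with no scaling its change was -0.01. It was also lower in treated sh-PRDM16 than in treated sh-scr cells (-0.33, SE 0.09, limma adjusted p = 0.0422). Nrf1, Gabpb1, Yy1 and Myc passed in no comparison.

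Set beside the members, the 33 subunits of respiratory complex I moved in the same directions and the cytosolic ribosomal proteins mostly did not pass. Of complex I genes, 29 rose with the drug in sh-PRDM16 and 33 in sh-scr cells (median log2 changes 0.65 and 0.59), and 20 were lower in sh-PRDM16 cells with the drug and 19 without it. Of 47 cytosolic ribosomal protein genes, 1 rose in each line, the Rpl39-like gene Rpl39l (0.45 and 0.29), and the median changes were 0.00 and 0.05. Between the lines 3 of these 47 were higher in sh-PRDM16 cells with the drug and 3 without it, and Rpl39l was lower without it. Of all genes 14.4% and 14.9% rose with the drug in sh-PRDM16 and sh-scr cells. With and without the drug, 12.6% and 12% were lower and 11.4% and 9.76% higher in sh-PRDM16 cells. The difference between the lists was not tested.

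**Figure D4:**
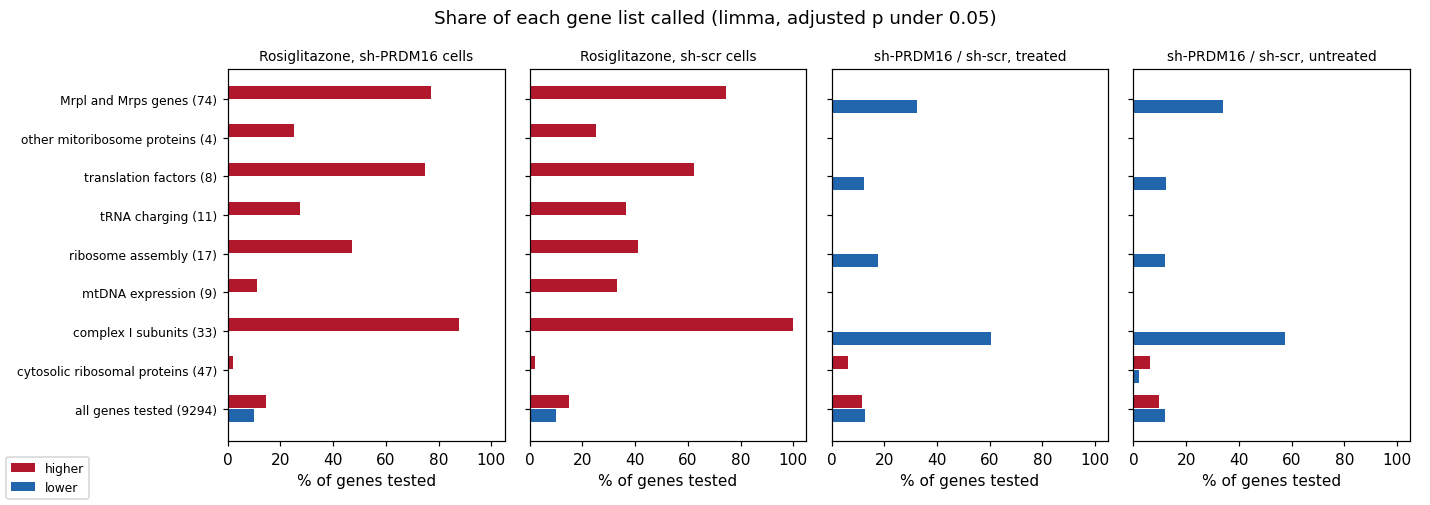
Share of each gene list (numbers of genes tested in parentheses) that passed as higher (red) or lower (blue), as a percentage (x axis from 0), in the 4 comparisons. The 74 members rose in 77.0% and 74.3% of cases with rosiglitazone in sh-PRDM16 and sh-scr cells, against 14.4% and 14.9% of all genes. With no scaling of the arrays 35 and 12 of the 74 rose and 3 fell in sh-scr cells. The list of translation factors also holds the related genes Lrpprc, Slirp and Mtfmt.

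Markers of several cell types moved with the groups. Of all genes, 14.4% and 14.9% rose and 9.80% and 9.89% fell with the drug in sh-PRDM16 and sh-scr cells. With and without the drug, 12.6% and 12% were lower and 11.4% and 9.76% higher in sh-PRDM16 cells. The summed intensity of 10 adipocyte markers was 72650 and 70623 in treated sh-PRDM16, 51458 and 52299 in untreated sh-PRDM16, 84041 and 95400 in treated sh-scr and 70180 and 66955 in untreated sh-scr cells. Of these 10 markers 6 rose with the drug in sh-PRDM16 cells and 4 in sh-scr cells, with 2 falling in each (Retn and Lep), and 7 were lower in sh-PRDM16 cells in each comparison of the lines. The sum of 9 macrophage markers was 851 to 1148 in the 4 sh-PRDM16 arrays and 3543 to 4787 in the 4 sh-scr arrays, and 8 of the 9 were lower in sh-PRDM16 cells with the drug and 7 without it. Lyz2, the brightest that changed, had 129.0 and 132.7 in treated sh-PRDM16 cells, against 1855 and 2106 in treated sh-scr cells, and no marker was at 0. Of 8 stromal markers, 7 fell with the drug in sh-PRDM16 and 5 in sh-scr cells, and their sum was 28651 and 31406 in treated sh-PRDM16, 39265 and 40169 in untreated sh-PRDM16, 26597 and 27274 in treated sh-scr and 33758 and 36526 in untreated sh-scr cells. The part of these markers in the members' changes was not tested, and in such bulk RNA fewer cells of a type cannot be told apart from less RNA per cell. Of 5 endothelial markers, 2 fell with the drug in sh-PRDM16 and 1 in sh-scr cells, and of 7 smooth muscle markers 3 fell in each line. In sh-PRDM16 against sh-scr cells, 1 endothelial marker (Tek) was lower with the drug. Of the smooth muscle markers 2 were higher with the drug (Cnn1 and Actg2) and 1 without it (Cnn1). Of the stromal markers, Thy1 was higher and Pdgfra and Cd34 were lower with the drug, and Thy1 and Dcn were higher and Pdgfra was lower without it. A sign of RNA quality also moved with the drug. The log2 gap between the 3′ and 5′ control probe sets of Actb was 0.329 to 0.488 on the 4 treated arrays and 0.247 to 0.315 on the 4 untreated ones, and that of Gapdh was -0.355 to -0.327 on the treated and -0.445 to -0.405 on the untreated arrays. Neither gap overlapped between treated and untreated arrays, and its part in the drug response of the members was not tested.

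The number of calls depended on how the arrays were scaled. Linear scalings shift all genes of an array nearly alike, so they could hardly change the distance between the members and all genes. Quantile normalization is not linear. It gave member medians of 0.38 in sh-PRDM16 and 0.37 in sh-scr cells for the drug, against -0.05 for all genes in each line. Between the lines it gave -0.18 with the drug and -0.22 without it, against 0.02 and 0.03. With no scaling the median of the members minus that of all genes was 0.44 in sh-PRDM16 and 0.42 in sh-scr cells for the drug, and -0.21 with and -0.26 without it between the lines. On that scale the median of all genes itself was 0.00 and -0.31 for the drug in sh-PRDM16 and sh-scr cells, and 0.15 and -0.16 between treated and between untreated lines.

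**Figure D5:**
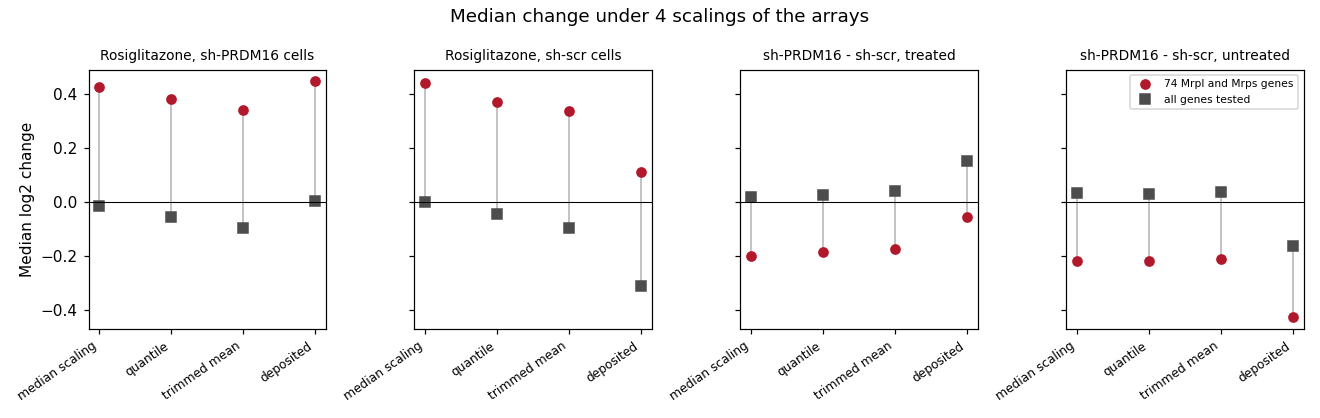
Median log2 change (y axis) of the 74 members (red circles) and of all genes tested (grey squares) under 4 scalings of the arrays (x axis) in the 4 comparisons. The gap between circle and square keeps its side throughout, but of the 4 scalings only quantile normalization could have changed it much. With no scaling (deposited) the median of all genes moves to -0.31 for rosiglitazone in sh-scr cells and that of the members to 0.11.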

How the data were processed

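Total RNA (Trizol) was reverse transcribed from a T7 oligo-dT primer, transcribed into biotin-labelled cRNA and hybridised to Affymetrix mouse 430A_2 arrays, 8 in all and 2 per group, per the labels' protocols. The deposited values are linear probe set intensities from 0.1 to 22736.2; no source used here states the software or scaling behind them, and the array medians differed by up to log2 0.435. Of 22690 probe sets, 64 were controls, 20380 named 1 gene in GEO's platform annotation, 691 several and 1555 none. Each array was scaled linearly to a common median of non-control probe sets. Values were tested as log2(intensity + 16), so fold changes of dim genes are understated. The brightest single-gene probe set stood for a gene, the dimmest 25% of genes were dropped, and limma 3.58.1 (R 4.3.3; lmFit, eBayes, two-sided) was fitted to all 8 arrays with 4 group means; Benjamini-Hochberg adjustment ran over all 9294 genes. The number of arrays limits the precision, with 4 residual and 2.34 prior degrees of freedom.

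Genes were named by rule: in each comparison the 8 largest rises and falls among members that passed without overlap, 13 members with particular roles, the 3 brightest and 3 dimmest members, the 3 largest passing changes of each list, and the regulators. Members outside this rule, such as Mrpl24, Mrpl33, Mrpl52 and Mrps15, were named after their values were seen. The members and gene lists were chosen with earlier results of these data known. Lists covered proteins with other ribosomal symbols, translation factors and related genes, transfer RNA charging, ribosome assembly, mitochondrial DNA expression and regulators. They also covered adipocyte, macrophage, endothelial, smooth muscle and stromal markers. Complex I and cytosolic ribosomal proteins were taken by symbol. Alternatives were 4 scalings, 2 filters, 2 pseudocounts, the mean of all probe sets, a trended prior, a replicate block, fits on the compared arrays alone and leaving out each array. The test was checked on simulated data. Mrps10 and Mrps27 were not analysed here.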

Additional observations from a re-analysis of the deposited data

Results flagged for a closer look

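A few genes had arrays that moved one way in one setting and the opposite way in the other, without overlap in either. In a single comparison, 29.7% to 35.1% of all genes did not overlap in a given direction. The share of all genes with opposite directions in both settings was not counted. The difference between the 2 settings is the same contrast tested across all genes with limma, and none of these genes passed it. For the rosiglitazone response, Mrpl24 changed by log2 0.08 in sh-PRDM16 cells and -0.21 in sh-scr cells (difference 0.29, adjusted p = 0.383), Mrps15 by 0.13 and -0.11 (difference 0.24, adjusted p = 0.357), and Polg2, an accessory subunit of the mitochondrial DNA polymerase, by 0.30 and -0.28 (difference 0.58, adjusted p = 0.246). For sh-PRDM16 minus sh-scr cells, Mrpl24 differed by 0.09 with the drug and -0.20 without it (difference 0.29) and Mrps15 by 0.10 and -0.14 (difference 0.24). In the same comparison Mrps34 differed by 0.10 with the drug and -0.19 without it (difference 0.29, adjusted p = 0.367). The elongation factor Tufm differed by 0.31 and -0.29 (difference 0.60, adjusted p = 0.366), and Gatc, a subunit of the enzyme that completes glutaminyl transfer RNA, by 0.08 and -0.15 (difference 0.23, adjusted p = 0.431).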

How the results depend on the processing

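With no scaling of the arrays, rises of members numbered 35 in sh-PRDM16 and 12 in sh-scr cells, with 3 falls in sh-scr cells, and all genes passing numbered 1255 and 3484; in treated sh-PRDM16 against treated sh-scr cells 2 members were lower and 1432 genes passed, and 70 genes passed the difference of responses. The median of all genes was there -0.31 for the drug in sh-scr cells and 0.33 for the difference of responses, and the drug changes of Mrps12 and Gabpa in sh-scr cells turned to -0.0305 and -0.0129. In sh-scr cells 1 member fell with quantile normalization, 2 with trimmed-mean scaling and 1 with a trended prior. With no filter 14 members were lower in treated sh-PRDM16 cells, as were 950 of all genes. With the mean of all probe sets the members' median drug response in sh-scr cells exceeded that of all genes by 0.35, and 1 member, Mrpl52, was higher in treated sh-PRDM16 cells. The untreated difference of Mrpl42 turned to 0.0217, where a probe set near background enters its mean. Fits on the compared arrays alone, which have fewer residual degrees of freedom, gave 7 lower members (1332 genes) with the drug and 10 (1290 genes) without it. Genes passing the difference of responses numbered 3 with trimmed-mean scaling, 0 with no filter, with a pseudocount of 1 and with a replicate block, 122 with the dimmest 50% dropped, 91 with a pseudocount of 64, 12 with the mean of probe sets and 216 with a trended prior; no member passed it under any of these settings. The causes of these changes were not tested.

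Leaving out 1 array gave 29 to 54 rises in sh-PRDM16 cells (1286 to 2136 genes passing) and 29 to 50 in sh-scr cells (1220 to 2078), 5 to 19 lower members in treated sh-PRDM16 cells (940 to 1968 genes) and 3 to 21 lower with 0 to 1 higher in untreated ones (784 to 1817), and 0 to 2 genes passing the difference of responses. Same-numbered arrays correlated at -0.03 to 0.06 in their deviations from the group means. With 2 arrays per group this does not settle whether same-numbered arrays were paired. With the replicate block 55 and 49 members rose in sh-PRDM16 and sh-scr cells, as did 1247 and 1290 of all genes. In that fit 19 and 20 members were lower with and without the drug, as were 1085 and 1013 of all genes. Further probe sets, not only dim ones, limit what can be said of single genes. Averaged over its probe sets, Mrpl1 changed by 0.47 in sh-scr cells (limma adjusted p = 0.0605). In these cells the second probe sets of Mrpl11 and Mrpl48, with mean intensities of 826 and 609, changed by 0.11 and 0.12. Their brightest ones changed by 0.50 and 0.49. Of 30 genes with several tested probe sets, 27 had changes of 1 direction in that line.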
